A study of Mus musculus with 8 samples.

Results

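A set of 10 interferon-induced antiviral genes was followed in healing mouse skin, namely Mx2, Rsad2, Cmpk2, Bst2, Xaf1, Rtp4, Ifi44, Ifi35, Ifi27l2a and Ifitm3. They were chosen by name as effectors that do not belong to the larger Ifit, Oas, Gbp or Schlafen families. The choice was made with earlier results of these data known. The platform annotation pairs array rows with 9 of the 10 genes, and these 9 are described here among 20259 genes with a single symbol. Ifi44 was not analysed here.

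The arrays came from whole-skin biopsies of wound scars in an early phase of wound-induced hair neogenesis, in which large wounds in adult mice grow new hair follicles. A strain with a high regeneration level was compared with a strain with a low regeneration level, in 4 arrays each and, by the series' design text, 4 mice each. Scars are called high 1 to 4 and low 1 to 4, by the numbers in their titles. The strains' names and alleles and the sex, age and day of biopsy were not given in the sources used here. Strain and regeneration level are the same split of the mice, so they cannot be told apart. Each value is a log2 expression level, and 1 unit is a doubling of signal.

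Interferons are secreted proteins that cells release when they sense foreign or misplaced nucleic acid. Their receptors activate the kinases Jak1 and Tyk2. A factor that contains Stat2 and Irf9 then binds a DNA element in front of responsive genes and switches on proteins that block viruses at entry, genome copying or release. In skin, keratinocytes and immune cells both respond to interferon, and the program also runs in wounds without infection.

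The antiviral effectors were higher in the high-regeneration scars as a group. Of the 9 measured genes 8 rose and 0 fell (limma, adjusted p under 0.05), where 1.86% of all genes were called higher and 2.47% were called lower. In those 8 genes every high scar lay above every low scar, as in 7.19% of all genes. Because the set was chosen with earlier results known, these shares are a description and no test of the set. Differences, high minus low on the log2 scale, ran from 0.36 for Rtp4 to 1.14 for Mx2 with a median of 0.91, against a median of 0.03 over all genes. The exception was Rtp4, which did not pass. In whole biopsies, fewer cells of a type and less RNA per cell cannot be told apart.

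Arrays differed in a few ways that bear on these genes. Array medians over all rows ran from 6.18 to 6.29 in the high group and from 6.09 to 6.21 in the low group, and the number of arrays limits the precision. As a check of the tissue, the mean of 9 epidermal keratinocyte markers was 11.64 to 11.74 in high and 11.42 to 11.72 in low scars, and that of 8 dermal fibroblast markers was 11.02 to 11.17 and 10.97 to 11.17. A list of 10 skeletal muscle genes averaged 6.86 to 7.06 in the high scars, against 7.002, 6.90, 9.61 and 10.21 in low 1 to 4. In that list 0 of 10 genes were called in limma, 1 was lower at an unadjusted p under 0.05 and the median difference was -1.45. Over all 20259 genes, 4420 had an unadjusted p under 0.05 in limma, in either direction. Unadjusted counts in the gene lists below stand beside that background. Eif2s3y, a gene of the Y chromosome, lay at 7.70 in high 4, 7.67 in low 2 and 7.57 in low 4, and between 4.08 and 4.76 elsewhere. The X-inactivation transcript Xist stood at 6.11 in high 4, at 9.60 in low 2 and at 10.05 in low 4, against 12.74 to 12.93 elsewhere. Low 2 and low 4 thus showed both a Y-linked signal and an intermediate Xist level, unlike high 4. Whether each of these 2 arrays holds RNA of 1 mouse was not tested.

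Without low 3 and low 4, 6 of the 9 antiviral genes were called at a median of 0.88, and Cmpk2 (adjusted p = 0.126) and Ifitm3 (adjusted p = 0.147) were not. Without low 2, low 4 and high 4, which leaves 3 high and 2 low arrays, 0 of 9 were called in limma and the median was 0.78, with 8 of the 9 higher at an unadjusted p under 0.05. In that smaller fit 5 of all genes were called higher. The count of all genes at that unadjusted level in the smaller fit is not given here.

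The interferon-stimulated response element is read here as GAAANNGAAA, where N is any base, on either strand. The shorter AANNGAAA, the core bound by interferon regulatory factors, forms its end. RefSeq promoter windows of 250 bases before to 50 after the start site (GRCm38.p6) were matched for 7 of the 10 genes. GAAANNGAAA was found in the windows of Rsad2, Bst2 and Ifitm3, 3 of 7, and in those of 3.99% of 27025 genes. AANNGAAA was found in 6 of 7, the exception being Cmpk2, and in those of 26.7% of all genes. A further pattern that was scanned, TTCNNNGAA, was found in 3 of 7 (Bst2, Ifi35 and Ifitm3) and in 9.55% of all genes. The 7 genes include Ifi44, whose expression was not analysed. These patterns were chosen after the sequences were seen, so the shares are no test of enrichment. A match is a description of letters and no binding was measured.

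Stretches of 4 of these windows are given to show where the letters fall, with matches in capitals. For Rsad2 (chr12:26456453-26456602, minus strand), Bst2 (chr8:71537473-71537622, minus strand) and Ifitm3 (chr7:141010715-141010744, minus strand) the capitals mark GAAANNGAAA or its reverse complement. For Xaf1 (chr11:72301529-72301628, plus strand), whose window lacks it, they mark AANNGAAA. All are written 5′ to 3′ on the gene's strand. The stretches of Rsad2, Bst2 and Xaf1 end just before the start site, and that of Ifitm3 begins at it:
Rsad2: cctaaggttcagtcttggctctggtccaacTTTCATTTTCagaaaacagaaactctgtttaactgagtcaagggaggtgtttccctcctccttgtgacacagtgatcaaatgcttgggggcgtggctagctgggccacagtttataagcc
Bst2: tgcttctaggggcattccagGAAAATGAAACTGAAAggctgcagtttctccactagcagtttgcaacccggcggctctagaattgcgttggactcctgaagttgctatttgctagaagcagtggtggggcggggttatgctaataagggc
Ifitm3: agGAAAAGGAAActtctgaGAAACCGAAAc
Xaf1: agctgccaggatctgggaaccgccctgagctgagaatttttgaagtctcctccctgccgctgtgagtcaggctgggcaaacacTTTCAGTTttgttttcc

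In Rsad2 the match began at position -120, counted from the start site, on the strand opposite to the gene. Bst2 held 2 overlapping matches, at -130 and -124, so that 3 half-sites stand in a row. In Ifitm3 the 2 matches lay past the start site, at positions 3 and 20. The Xaf1 match shown began at -17, and its window held another past the start site, at position 12.

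**Figure D1:**
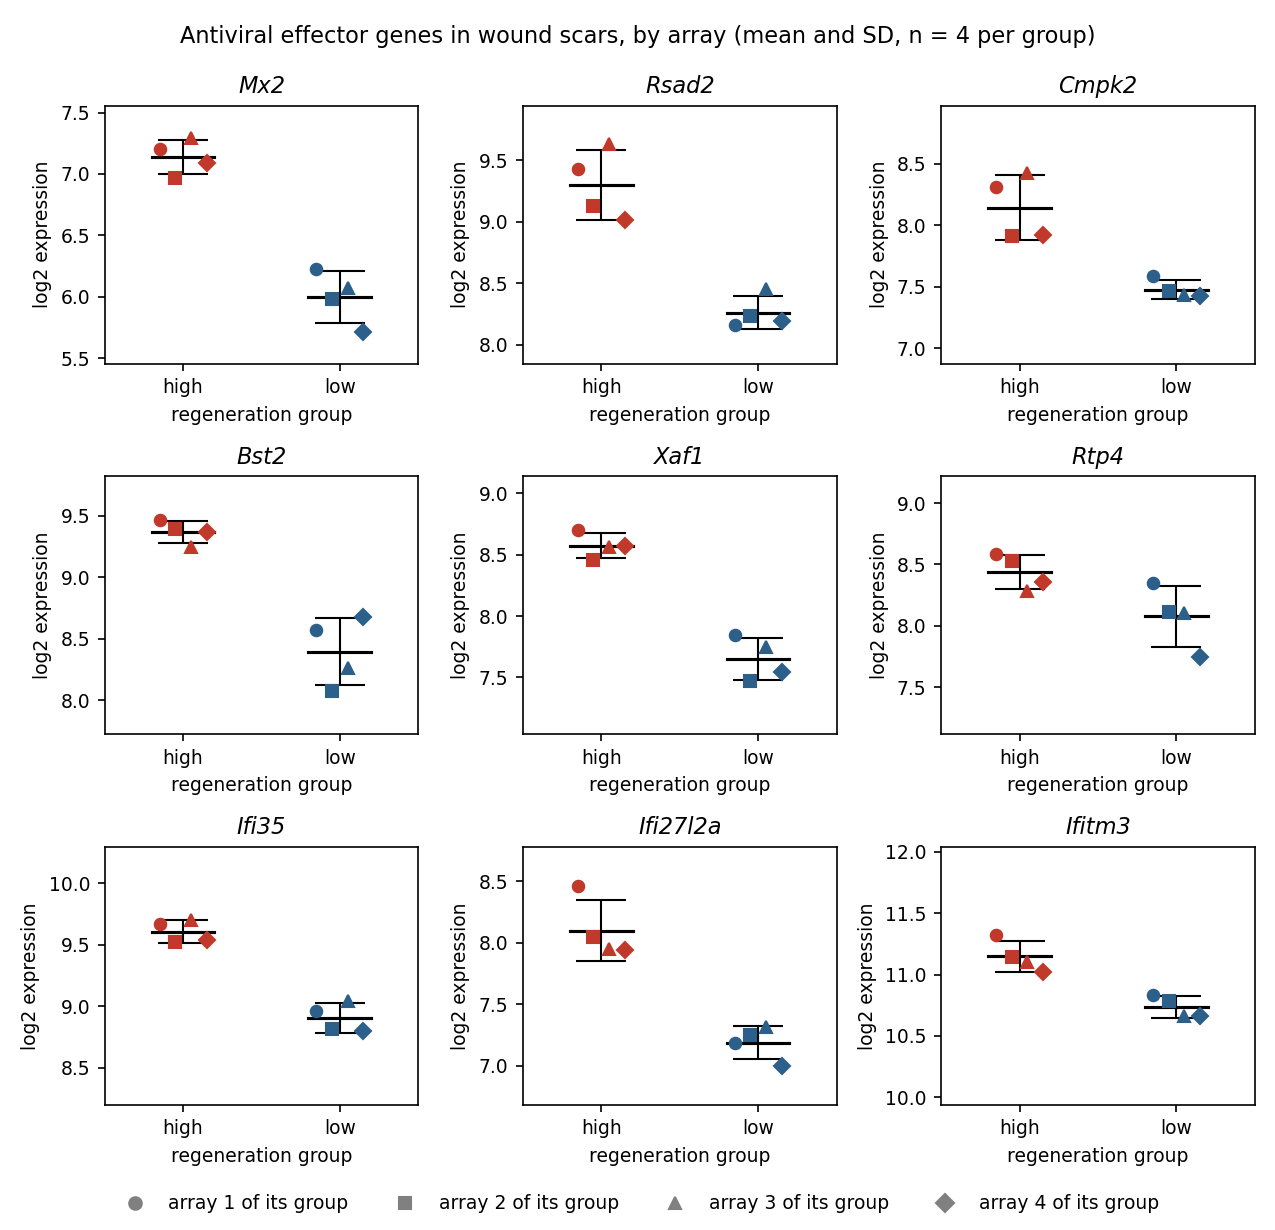
Log2 expression of the 9 measured antiviral genes in each scar, with high regeneration on the left (red) and low regeneration on the right (blue). Points are arrays, bars are the mean and SD of 4 arrays, and every panel spans the same number of log2 units. The groups are separate in all panels but Rtp4, where low 1 (8.35) lies above high 3 (8.29).

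Mx2 (chr16:97536081-97560901 in GRCm38.p6) belongs to the dynamin-like GTPases that assemble into rings around viral components. Its levels were 7.20, 6.97, 7.29 and 7.09 in high 1 to 4, against 6.23, 5.98, 6.07 and 5.72 in low 1 to 4. The lowest high scar stood 0.74 above the highest low scar, the widest gap among the 9 genes. Mx2 was 1.14 ± 0.11 (SE) higher on the log2 scale, or 2.20-fold with a 95% interval of 1.84 to 2.64 (limma, adjusted p = 0.00270). A difference at least as large was found in 0.197% of all genes. The paralog Mx1, whose protein acts in the nucleus and which is defective in many inbred mouse strains, was at 7.49 ± 0.20 in high and 6.38 ± 0.26 in low scars (SD, n = 4 each). It rose by 1.11 ± 0.14 (SE, adjusted p = 0.00623). The classical dynamins Dnm1, Dnm2 and Dnm3 and the dynamin-related Dnm1l were not called, with differences of 0.30, 0.12, 0.01 and -0.03.

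Rsad2 (chr12:26442743-26456452 in GRCm38.p6) encodes viperin, a radical-SAM enzyme that converts CTP into a nucleotide which stops viral RNA synthesis. High 1 to 4 were at 9.43, 9.13, 9.63 and 9.01 and low 1 to 4 at 8.16, 8.23, 8.46 and 8.19. All high scars were above all low scars, and the spread was wider in the high group. The difference was 1.04 ± 0.14 (SE), or 2.06-fold with an interval of 1.67 to 2.54 (adjusted p = 0.00690).

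Cmpk2 (chr12:26469117-26479837 in GRCm38.p6), a mitochondrial kinase of UMP and CMP, lies beside Rsad2 on chromosome 12. The RefSeq start sites of the pair are 12.8 kb apart and the genes are transcribed away from each other (GRCm38.p6). Cmpk2 had levels of 8.31, 7.92, 8.43 and 7.93 in high 1 to 4, against 7.59, 7.46, 7.43 and 7.42 in low 1 to 4. Both genes were highest in high 3 and next highest in high 1, while their order in the low scars differed. Cmpk2 rose by 0.67 ± 0.12 (SE), or 1.59-fold (adjusted p = 0.0205), with the 2 groups separated by 0.33. This call was not kept without low 2 (adjusted p = 0.0573), low 3 (0.0541) or low 4 (0.0563), with differences of 0.65 to 0.66. Rnf144a, on the other side of Rsad2, was not called at 0.15 ± 0.11 (adjusted p = 0.423). The cytosolic relative Cmpk1 was not called either, with a difference of -0.33 ± 0.22.

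Bst2 (chr8:71534255-71537472 in GRCm38.p6) encodes tetherin, which holds newly formed enveloped virions at the cell surface. It is also an antigen of plasmacytoid dendritic cells, a rare cell type that makes large amounts of interferon. High 1 to 4 were at 9.47, 9.39, 9.25 and 9.37, against 8.57, 8.08, 8.26 and 8.67 in low 1 to 4. No low scar reached a high scar, and the spread was wider in the low group. Bst2 rose by 0.97 ± 0.13 (SE), or 1.97-fold with an interval of 1.61 to 2.40 (adjusted p = 0.00690). Over the 8 measured plasmacytoid markers, 2 rose, 0 fell and 7 differences were positive, at a median of 0.25, with 5 higher and 0 lower at an unadjusted p under 0.05. Siglech, a surface lectin of these cells, was at 7.17 ± 0.15 in high and 6.39 ± 0.22 in low scars (SD, n = 4 each, adjusted p = 0.0112). Spib, a transcription factor of their lineage that B cells share, was at 7.15 ± 0.06 and 6.67 ± 0.11 (adjusted p = 0.00961). Without low 2, low 4 and high 4 neither was called (adjusted p = 0.136 for Siglech and 0.212 for Spib). The mean of the 8 markers was 8.28 to 8.36 in high and 7.91 to 8.14 in low scars. Ly6d was the brightest of the list, at 12.21 in high and 11.94 in low scars. Cox6a2, with a difference of -0.19, was highest in low 3 (8.12) and low 4 (8.65), the low scars with high muscle signal. How far other cells gave the signal of these markers was not tested. The part of plasmacytoid dendritic cells in the Bst2 difference was not tested.

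Xaf1 (chr11:72301461-72313733 in GRCm38.p6) is a zinc-finger protein that binds XIAP, an inhibitor of caspases, and favours cell death. It was measured by 2 rows, averaged to 8.70, 8.45, 8.56 and 8.57 in high 1 to 4, against 7.84, 7.47, 7.75 and 7.54 in low 1 to 4. The groups were 0.61 apart at their closest. Xaf1 rose by 0.92 ± 0.09 (SE), or 1.89-fold with an interval of 1.63 to 2.20 (adjusted p = 0.00270). Taken singly the rows differed by 1.07 ± 0.15 and 0.77 ± 0.13 (SE), the same direction. Its binding partner Xiap was not called, at -0.06 ± 0.07. Fbxo39, the gene nearest to Xaf1, had a difference of 0.06 ± 0.07.

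Ifi35 (chr11:101448412-101458701 in GRCm38.p6) is a leucine-zipper protein that forms complexes with Nmi. Its levels were 9.67, 9.52, 9.70 and 9.54 in high 1 to 4, against 8.96, 8.81, 9.05 and 8.80 in low 1 to 4. Every high scar lay above every low scar, by at least 0.47. Ifi35 rose by 0.70 ± 0.08 (SE), or 1.63-fold (adjusted p = 0.00402). Nmi itself did not pass and had a negative difference of -0.21 ± 0.10 (adjusted p = 0.239). Vat1, which lies 47 bases from Ifi35 in the annotation, was not called at 0.08 ± 0.06.

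Ifi27l2a (chr12:103433873-103443680 in GRCm38.p6) encodes a small hydrophobic protein of the ISG12 family. It was at 8.46, 8.05, 7.95 and 7.94 in high 1 to 4, against 7.19, 7.25, 7.32 and 6.999 in low 1 to 4. High 1 was above the other high scars, which lay close together and still above every low scar. The rise was 0.91 ± 0.12 (SE), or 1.88-fold with an interval of 1.55 to 2.28 (adjusted p = 0.00792), and 0.79 without high 1 (adjusted p = 0.00865). The relatives beside it were not called: Ifi27 had a difference of -0.12 ± 0.13 and Ifi27l2b of -0.06 ± 0.06. Annotated Ifi27 and Ifi27l2a overlap on chromosome 12, and members of this family are similar in sequence, so which member gave the signal is uncertain. Ddx24, an RNA helicase gene in the same stretch, was the 1 gene called among 26 non-member neighbours within 50000 bases of the measured genes, at 0.29 ± 0.05 (adjusted p = 0.0236).

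Ifitm3 (chr7:141009590-141010744 in GRCm38.p6) encodes a membrane protein that stops viruses from fusing with endosomes. The signal was 11.32, 11.14, 11.11 and 11.02 in high 1 to 4, against 10.84, 10.78, 10.66 and 10.66 in low 1 to 4. The groups were separated by only 0.19. Ifitm3 rose by 0.41 ± 0.08 (SE), or 1.33-fold with an interval of 1.18 to 1.51 (adjusted p = 0.0238). The call was kept without low 1 or high 4 and lost when any of the other 6 arrays was left out (adjusted p = 0.0519 to 0.0655), with differences of 0.35 to 0.43. None of its 5 measured relatives was called in limma. Ifitm7 was at 0.17 ± 0.07 and Ifitm2 at 0.10 ± 0.10, while Ifitm6 varied widely, at 5.41 ± 0.63 in high and 5.83 ± 1.00 in low scars (SD, n = 4 each). These proteins are close paralogs, and rows of one may take signal from another.

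Rtp4 (chr16:23520219-23614222 in GRCm38.p6) is a Golgi chaperone that helps some G protein-coupled receptors to the surface and is induced by interferon. It was at 8.59, 8.53, 8.29 and 8.36 in high 1 to 4, against 8.35, 8.11, 8.10 and 7.75 in low 1 to 4. The groups overlapped, since low 1 was above high 3. The difference of 0.36 ± 0.12 (SE), with an interval of 0.08 to 0.64, had an unadjusted p of 0.0172 in limma and did not pass (adjusted p = 0.139). It was 0.25 without low 4 and 0.21 without low 3 and low 4. In the RefSeq annotation the Rtp4 locus overlaps Masp1, which was at 0.07 ± 0.12. The relatives Rtp1, Rtp2 and Rtp3 were not called, with differences of 0.05, 0.07 and 0.18.

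**Figure D2:**
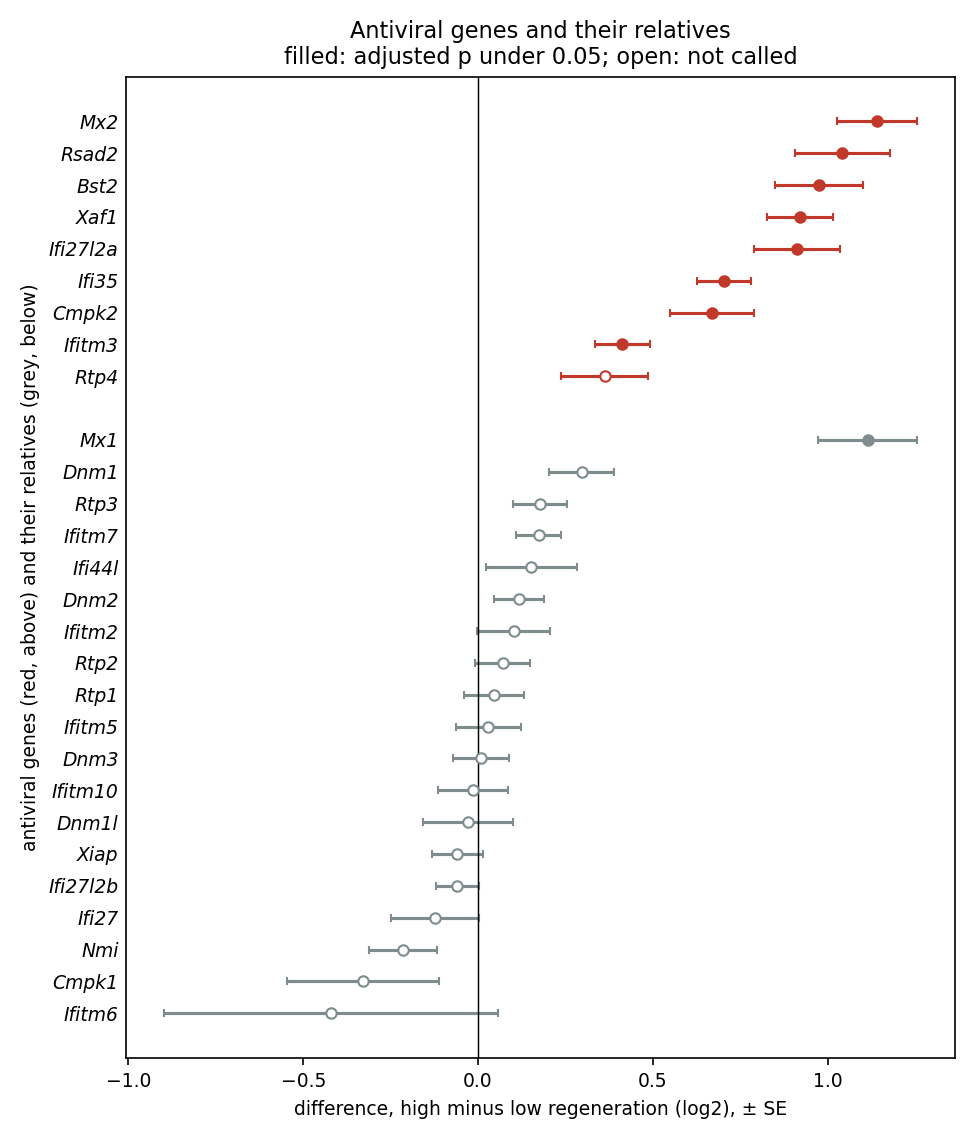
Difference between high and low regeneration on the log2 scale with its SE, for the 9 antiviral genes (red, above) and 19 relatives or partners (grey, below). Filled points have an adjusted p under 0.05: 8 of the antiviral genes and, among the relatives, Mx1.

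Across the relatives and partners as a list, 1 of 19 measured genes rose and 0 fell, at a median difference of 0.03, and 4 were higher and 0 lower at an unadjusted p under 0.05. Mx1 was that gene, and it was not called without low 2, low 4 and high 4 (adjusted p = 0.121). Ifi44l, the neighbour of Ifi44, was at 5.89 ± 0.14 in high and 5.74 ± 0.26 in low scars (SD, n = 4 each) and was not called. Differences between a gene and its relative were not tested.

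Which scar was highest within its group was shared by many of the 9 genes. High 1 was the highest high scar for 5 of them and high 3 for 4, and low 1 was the highest low scar for 5. Low 4 was the lowest low scar for 5. The mean of the 9 genes was 9.02, 8.79, 8.91 and 8.76 in high 1 to 4, against 8.19, 8.02, 8.12 and 7.97 in low 1 to 4. Bst2 departed from this order, with low 4 as its highest low scar and high 3 as its lowest high scar. After each group's mean was removed, the Pearson r of a gene with the mean of the other antiviral genes over the 8 arrays was highest for Ifi35 (0.78), Xaf1 (0.77) and Mx2 (0.72), and lowest for Rsad2 (0.41) and Bst2 (-0.13). All points come from the same 8 arrays. The outside gene most like the average of the 9 was Trim30c, at a Pearson r of 0.990 over the 8 arrays. This r and those that follow were also taken after each group's mean was removed, so they do not reflect the difference between groups. Trim30c, of the Trim30 gene cluster, rose by 0.59 ± 0.08 (SE, adjusted p = 0.00972). Its signal was low, at 6.23 in high and 5.64 in low scars, and can hold background. The call was kept in 20 of the 22 alternatives that gave it a value. The next were Magee1 (0.971), Eif4e3 (0.962), Gpr182 (0.961) and Cstad (0.958), none of them called. These were the highest of 16383 correlations over the same 8 arrays and are given as a description.

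The rest of the interferon pathway was followed in lists of ligands, receptors, transcription factors, inhibitors and other effectors. Of 9 measured ligands 1 rose and 0 fell, at a median of 0.16. It was Ifnk, interferon kappa, a type I interferon of keratinocytes, at 6.06 ± 0.27 in high and 4.95 ± 0.22 in low scars (SD, n = 4 each). Its difference was 1.11 ± 0.15 (SE, adjusted p = 0.00777), and it was called in all 22 alternatives that gave it a value. Both filters on gene level leave Ifnk out, since its mean over all arrays of 5.51 is below the 25th percentile of 6.18, and a low signal can hold background. Without low 1 the count of called ligands was 3. Ifnb1 was at 7.15 ± 0.20 and 7.02 ± 0.14, and Ifng at 6.29 ± 0.13 and 6.23 ± 0.07, and neither was called. Receptors and their kinases had 0 of 9 called in limma and 2 at an unadjusted p under 0.05, both higher, with a median of 0.10.

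Of 9 STAT and IRF factors 4 rose, 0 fell and the median was 0.21. Irf9, the DNA-binding subunit of the complex, rose by 0.70 ± 0.10 (SE, adjusted p = 0.0112), and its partner Stat2 by 0.78 ± 0.13 (adjusted p = 0.0144). Irf7, the factor that amplifies interferon production, rose by 0.89 ± 0.15, from 2 rows (adjusted p = 0.0144). Irf8, a factor of myeloid cells and plasmacytoid dendritic cells, rose by 0.49 ± 0.07 (adjusted p = 0.0109). Of 8 genes listed as inhibitors of the pathway 2 rose and 0 fell, at a median of 0.19. At an unadjusted p under 0.05 in limma, 4 were higher and 2 lower. The lower ones were Ptpn2 (-0.17) and Trim24 (-0.15), and for Trim24 every low scar lay above every high scar. Usp18, which removes Isg15 from proteins and dampens the receptor, was at 10.13 ± 0.16 in high and 8.53 ± 0.40 in low scars, and the ubiquitin-like Isg15 at 8.24 ± 0.30 and 6.85 ± 0.33 (SD, n = 4 each).

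Among 36 other antiviral effectors 27 rose and 0 fell, at a median of 0.61, and 17 were called when low 3 and low 4 were left out, and 2 when low 2, low 4 and high 4 were. In that last fit 0 STAT and IRF factors were called in limma and differences were 0.55 to 0.90 for the 4 named above. The smallest p-values belonged to Ifit3 and Ifit1, which bind foreign RNA, at differences of 1.55 ± 0.12 and 1.97 ± 0.20 (SE), and to Dtx3l (0.71 ± 0.07) and Parp14 (0.84 ± 0.09), of the ADP-ribosylation enzymes and their partners. The differences of all 9 measured genes lay inside the range of these other effectors, -0.14 to 1.97. These lists were chosen with the earlier results known and their counts are not independent evidence of a direction.

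**Figure D3:**
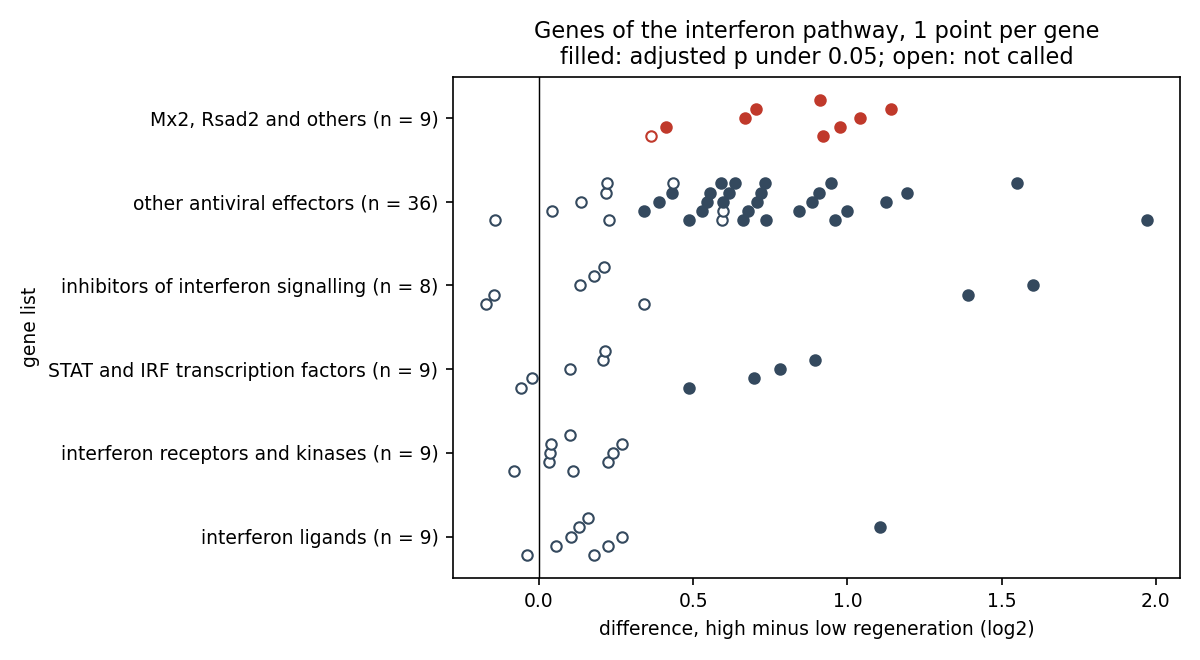
Difference between high and low regeneration on the log2 scale for each measured gene of the interferon pathway, 1 point per gene, with the 9 antiviral genes in red. The vertical offset within a list only separates the points, and filled points have an adjusted p under 0.05. Called genes numbered 8 of 9 antiviral genes, 27 of 36 other effectors, 2 of 8 inhibitors, 4 of 9 STAT and IRF factors, 0 of 9 receptors and kinases and 1 of 9 ligands.

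Besides the plasmacytoid list, each list of cell type markers had at most 1 gene called. Called higher were Emcn of 8 endothelial genes, Fcgr1 of 9 macrophage genes, Cd4 of 11 T and natural killer cell genes, Cd22 of 9 B and plasma cell genes and Laptm5 of 8 genes of all leukocytes. Over all 20259 genes, 4420 had an unadjusted p under 0.05 in limma, in either direction. At that level 6 of 8 endothelial genes were higher and 0 lower, at a median difference of 0.26. Of 8 genes of all leukocytes 5 were higher and 0 lower, at a median of 0.27. Likewise 3 of 9 B and plasma cell genes and 2 of 11 T and natural killer cell genes were higher and 0 lower. The neutrophil list had 0 of 10 called in limma and 3 higher at an unadjusted p under 0.05, the keratinocyte list 0 of 9 with 2 higher and 1 lower, and the fibroblast list 0 of 8 with 2 higher. Fcgr1, the high-affinity antibody receptor and itself induced by interferon, was at 8.76 ± 0.15 in high and 8.08 ± 0.10 in low scars (SD, n = 4 each). Mrc1, the mannose receptor of macrophages, went the other way at 10.04 ± 0.42 in high and 10.73 ± 0.18 in low scars (SD, n = 4 each), with every low scar above every high scar. Its difference of -0.68 ± 0.19 (SE) was not called (adjusted p = 0.0819) and was called lower without high 1, at -0.83 (adjusted p = 0.0453). The mean of the 8 leukocyte genes was 8.42 to 8.67 in high and 8.13 to 8.40 in low scars, so its ranges were narrowly apart. The Emcn call was lost without high 3 or low 2, and with 1 of the 8 arrays left out at a time the call was lost 6 times for Cd4, 6 times for Cd22 and 7 times for Laptm5. The macrophage list overlapped, at 9.23 to 9.45 and 9.12 to 9.43. How far the number of immune or endothelial cells enters the antiviral differences was not tested.

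**Figure D4:**
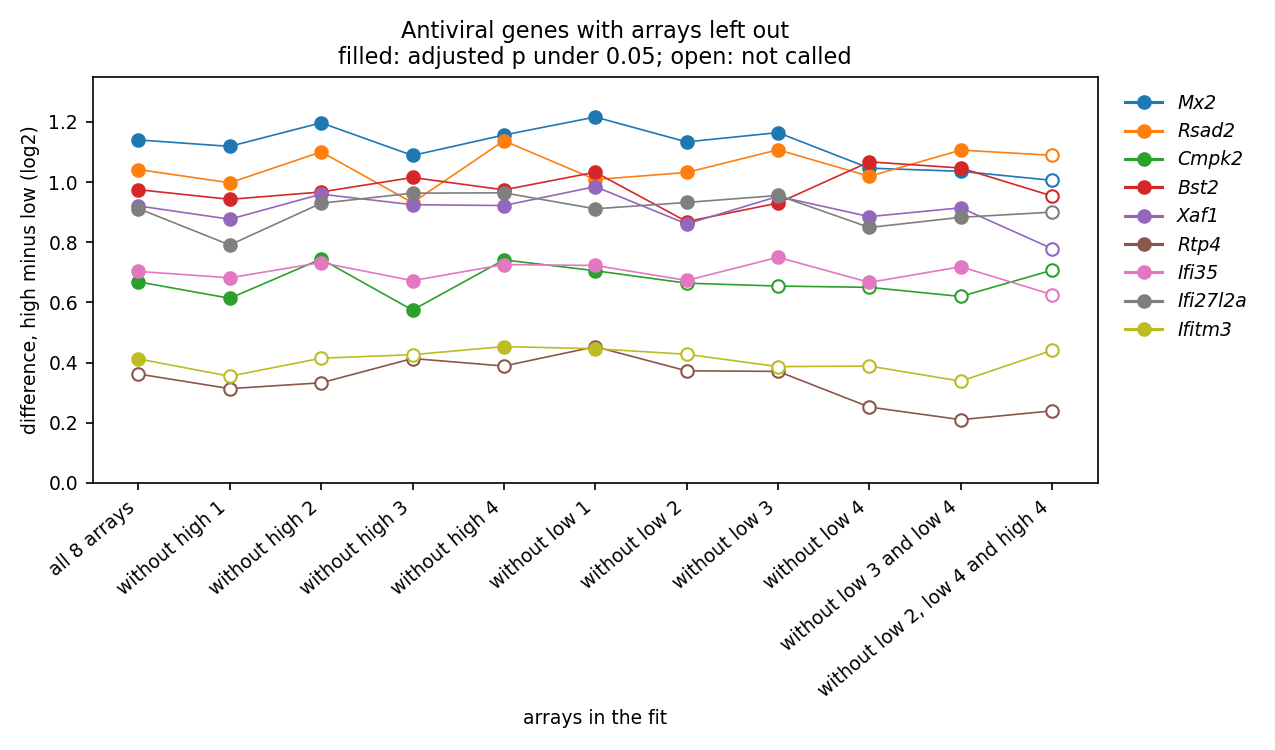
Difference between high and low regeneration on the log2 scale for each antiviral gene with all 8 arrays, with 1 array left out at a time, with the muscle-rich low 3 and low 4 left out, and with the Y-signal arrays left out. Filled points have an adjusted p under 0.05, and lines only link the points of a gene. All differences are positive, 6 to 8 genes are called with any 1 array left out, and 0 are called in the rightmost setting. For the 8 genes whose groups are separate, leaving out arrays cannot turn the sign.

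Leaving out single arrays left 6 to 8 genes called. All 9 differences stayed positive, which was fixed in advance for the 8 genes whose groups were separate. Mx2, Rsad2, Bst2, Xaf1, Ifi35 and Ifi27l2a were called without each of the 8 arrays. Rtp4 was called in none of these settings, with its smallest adjusted p of 0.0583 without low 1.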

How the data were processed

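RNA from 8 scar biopsies was measured on Affymetrix Exon arrays, 1 array per biopsy. The deposited values are log2 expression per transcript cluster, as the authors made them; Affymetrix Expression Console and PLIER are named per the submitters' processing notes. How background and differences between arrays were handled was not given in the sources used here. A log2 scale was read from the values, which run from 2.10 to 14.92. No detection calls were used, and no filter on low values was applied.

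Of 115830 rows, 25539 have 1 gene symbol, 2300 have several and were left out, and 87991 list none. Rows of a gene were averaged, giving 20259 genes. The contrast high minus low was fitted on all genes in limma 3.58.1 (lmFit, eBayes, two-sided) under R 4.3.3, adjusted by Benjamini-Hochberg, and called at an adjusted p under 0.05. The code of the fit was run on simulated data with known changes and independent noise for each gene. Those data hold no shared differences between arrays, such as muscle signal, so the run checks the code only. The highest correlation between any 2 arrays was 0.980.

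Members, gene lists and alternatives were chosen with earlier results of these data known. Named are all members, up to 4 called genes with the smallest p of each list, and the 5 genes most like the members. Neighbours, relatives and pathway genes that were not called are named outside this rule, and promoter motifs were chosen after the sequences were seen. Names and promoters come from RefSeq tables of GRCm38.p6. Alternatives were the replicate block, quantile, median and cyclic loess scaling, eBayes with trend or robust, array weights, filters on gene level, brightest or median row, a muscle covariate, other thresholds and arrays left out.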

Additional observations from a re-analysis of the deposited data

How the results depend on the processing

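The alternatives that recompute the differences were 15, namely the scalings, array weights, the muscle covariate and arrays left out. In them all 135 values of the 9 antiviral genes were positive, at 0.20 to 1.22. In 8 of these genes every high scar lay above every low scar, so leaving out or weighting arrays cannot turn their sign. The other alternatives leave the differences as they are, except the row choice for Xaf1. Under the 3 scalings, the brightest or median row and the other moderations 8 genes were called. With the replicate block 6 were called, since Cmpk2 (adjusted p = 0.0501) and Ifitm3 (adjusted p = 0.0606) were not, and this block changed no other call of the 9. Irf8, Emcn, Siglech, Cd4, Cd22 and Laptm5 also lost their calls under it. The labels do not say whether their numbers pair the samples. Deviations of same-numbered arrays from their group means correlated at -0.26 to 0.02. These correlations cannot exclude a shared batch, since signals of single arrays such as muscle also enter them. Leaving out the arrays with Y-linked signal gave 0 called genes and a median of 0.78, with adjusted p of 0.0807 to 0.517, in a fit of 5 arrays. Without single arrays the count was 6 to 8 and the median 0.79 to 0.93. With the muscle mean as a covariate 6 were called at a median of 0.87, and 15 of the other antiviral effectors. Restricted to genes above the median level, which leaves out Mx2, 7 were called. Over all genes the calls were 376 higher and 500 lower, 212 and 593 after median centring, 291 and 628 after cyclic loess, 118 and 222 with the muscle covariate, 105 and 134 with the replicate block, 58 and 74 at an adjusted p under 0.01, 798 and 994 under 0.1, 127 and 198 without low 3 and low 4, and 129 to 536 and 163 to 669 without single arrays. The cause of these shifts was not tested. Low signals can hold background, for which no calls were used.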
